A study of Mus musculus with 8 samples.

Results

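Renin-angiotensin genes encode the hormone precursor, the enzymes and the receptors of a system that sets blood pressure and salt balance. 9 of the 30587 genes in a table of mouse kidney RNA were followed by name: Agt, Ren1, Atp6ap2, Ace, Mme, Enpep, Anpep, Agtr1a and Mas1. The set was chosen by the Ren1 counts, which were lower in Tsc1-KO kidneys than in WT kidneys, so its differences between the groups are described here and carry no test. Poly(A)-selected RNA of whole kidney was sequenced from mice 28 days old. The 4 Tsc1-KO libraries (Tsc1-KO 5 to 8) came from mice of genotype Tsc1f/f/Aqp2 Cre, and the 4 WT libraries (WT 1 to 4) from C57BL/6 mice. Tsc1 encodes hamartin, which restrains mTORC1 signaling, and Cre under Aqp2 control acts in principal cells of the collecting duct. The cells that carried the Ren1 RNA were not tested. Nothing in the labels ties a library to a mouse of its own, and a p-value therefore reflects the variation from library to library, which may be technical.

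Angiotensinogen, the product of Agt, is cut by renin to angiotensin I, from which angiotensin converting enzyme (Ace) makes angiotensin II. Angiotensin II constricts vessels and drives aldosterone release through its receptor Agtr1a, while membrane peptidases shorten or inactivate angiotensin peptides and a shortened form is recognized by the receptor Mas1. In the kidney, renin comes mainly from juxtaglomerular cells of the afferent arteriole, whereas the proximal tubule is rich in angiotensinogen and carries Ace, Mme, Enpep and Anpep on its brush border.

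The libraries held 26453073 (WT 2) to 31226739 (Tsc1-KO 7) counts. Levels are given as CPM (reads of a gene per 1000000 after scaling of the libraries), as mean ± SD over 4 libraries. The Tsc1 level did not separate the groups (34.0 to 65.9 CPM in Tsc1-KO kidneys and 42.75 to 55.3 CPM in WT kidneys), so it does not check the labels of these whole kidneys. Reads of 4 Y-linked genes were found in Tsc1-KO 7 and 8 (6001 and 5329 reads) and in WT 3 and 4 (3945 and 4578 reads), against at most 8 reads in the other 4 libraries, and the labels give no sex. The genetic background of the Tsc1-KO mice is not given in the labels either. Ifi202b, a transcript that C57BL/6 mice are known to lack, averaged 3.08 ± 0.959 CPM in Tsc1-KO kidneys and had no read in the 4 WT libraries. Strain and Tsc1 genotype cannot be told apart where a gene differs between strains.

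Tsc1-KO 7 stood apart in adrenal cortex transcripts. The steroidogenic genes Cyp11b1, Cyp11b2, Cyp21a1, Cyp11a1, Star, Hsd3b1 and Mc2r summed to 227 CPM in Tsc1-KO 7 and to 6.28 to 8.88 CPM in the other Tsc1-KO libraries, against 5.44 to 6.63 CPM in the WT libraries. Cyp11b2, the aldosterone synthase, had 118 reads in Tsc1-KO 7 and none in the other 7 libraries. Kidney markers were present in every library, with Umod, of the thick ascending limb, at 2537 to 3126 CPM in Tsc1-KO and 2636 to 3170 CPM in WT kidneys, and Aqp2, of principal cells, at 411 to 539.6 CPM in Tsc1-KO and 322 to 559.8 CPM in WT kidneys. Adipose markers summed to 429 CPM in Tsc1-KO 6, 412 CPM in Tsc1-KO 7 and 93.3 to 157 CPM in the other Tsc1-KO libraries. They summed to 120 to 229.7 CPM in the WT libraries. Of 6 myeloid markers, 3 passed the test as higher in Tsc1-KO (Ptprc, Lyz2 and Itgam), beside 3.5% of all tested genes. Cd68 (log2 change 0.94), Adgre1 (0.37) and Csf1r (-0.15) did not pass. Of the mast cell markers Kit, which is not specific to mast cells, passed as higher, Ms4a2 had a log2 change of -0.21 and did not pass, and the other 4 had too few counts to be tested. No endothelial or red blood cell marker passed, beside 4.67% of all tested genes, and nothing is read from such short lists. Red blood cell markers summed to 2389 CPM in Tsc1-KO 8 and 481 to 899 CPM in the other Tsc1-KO libraries. In the WT libraries they summed to 954 to 1198 CPM. The part of the adrenal transcripts in the values of Tsc1-KO 7 was not tested.

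**Figure D1:**
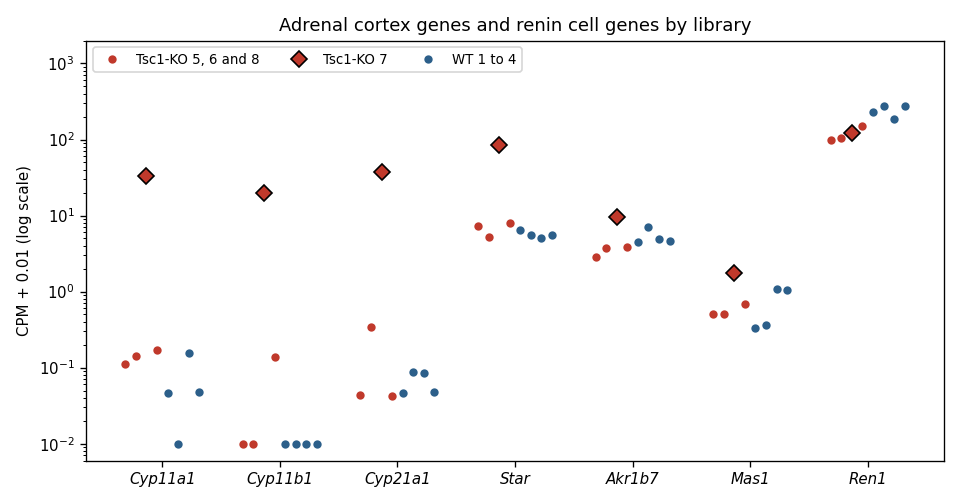
Level of 4 adrenal cortex genes and of Akr1b7, Mas1 and Ren1 in each library, as CPM + 0.01 on a log scale, with Tsc1-KO in red (Tsc1-KO 7 as a large diamond) and WT in blue. Cyp11a1, Cyp11b1, Cyp21a1 and Star are highest in Tsc1-KO 7, where Akr1b7 (9.68 CPM) and Mas1 (1.73 CPM) are also at their highest, while Ren1 (122 CPM) lies among the other Tsc1-KO libraries.

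Ren1 encodes renin, the aspartyl protease that starts the cascade. Ren1 (ENSMUSG00000070645; GRCm38 chromosome 1, 133350510 to 133360325, plus strand) had 97.1, 105, 122 and 149.7 CPM in Tsc1-KO 5, 6, 7 and 8, against 227, 279.8, 187.5 and 274 CPM in WT 1, 2, 3 and 4. Every Tsc1-KO library lay below every WT library, and the gap between the nearest libraries (Tsc1-KO 8 and WT 3) was narrower than the range within either group. The mean was 119 ± 23.3 CPM in Tsc1-KO kidneys and 242 ± 43.4 CPM in WT kidneys, a log2 change of -1.03 (SE 0.17), or 2.04-fold lower in Tsc1-KO. The log2 change lay between -1.16 and -0.95 when any 1 library was left out. It was -0.74 among the libraries with Y-linked reads and -1.32 among those without. In whole kidney, fewer renin cells and less renin RNA per cell cannot be told apart. Some strains, such as 129, carry a near-identical second renin gene, Ren2, so reads of such a copy, if present, would have been counted to Ren1.

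Atp6ap2 (ENSMUSG00000031007; chromosome X, 12587801 to 12617049, plus strand) encodes the (pro)renin receptor, which is also an accessory subunit of the V-ATPase proton pump and is made by many kidney cell types. It had 188.5, 234, 155 and 199.9 CPM in Tsc1-KO 5, 6, 7 and 8, against 153, 131, 115.5 and 122 CPM in WT 1, 2, 3 and 4. Every Tsc1-KO library was above every WT library, with Tsc1-KO 7 (155 CPM) and WT 1 (153 CPM) almost level. The log2 change was 0.58 (SE 0.14), or 1.49-fold higher in Tsc1-KO, and it was 0.57 both among libraries with and among libraries without Y-linked reads. Ren1 and Atp6ap2 were the 2 of 9 genes that passed an adjusted p under 0.05 in the fit across all genes (edgeR quasi-likelihood test), where 4.67% of the 18048 tested genes passed, 1.16% as lower and 3.5% as higher. Since the contrast chose the genes, nothing is read from that count.

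The promoter windows of Ren1 and Atp6ap2 are shown because these genes differed in opposite directions. Each window runs from 250 bases before to 50 bases after the start (RefSeq, GRCm38.p6, 5′ to 3′ on the gene's strand). The capitals mark TATAAA in Ren1, whose first base lies 29 bases before the start, and TGACG, the core of a cAMP response element, in Atp6ap2, whose first base lies 62 bases before the start. These RefSeq starts differ from the gene positions given above. The RefSeq start lies inside the stated gene for Ren1 and before it for Atp6ap2.
Ren1, chr1:133350424-133350723, plus strand: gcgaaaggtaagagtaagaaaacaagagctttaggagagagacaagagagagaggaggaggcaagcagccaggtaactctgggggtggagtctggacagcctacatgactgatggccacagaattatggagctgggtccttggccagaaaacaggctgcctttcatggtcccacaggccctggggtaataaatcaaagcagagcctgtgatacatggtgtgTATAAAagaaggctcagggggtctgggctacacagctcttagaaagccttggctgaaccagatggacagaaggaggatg
Atp6ap2, chrX:12587509-12587808, plus strand: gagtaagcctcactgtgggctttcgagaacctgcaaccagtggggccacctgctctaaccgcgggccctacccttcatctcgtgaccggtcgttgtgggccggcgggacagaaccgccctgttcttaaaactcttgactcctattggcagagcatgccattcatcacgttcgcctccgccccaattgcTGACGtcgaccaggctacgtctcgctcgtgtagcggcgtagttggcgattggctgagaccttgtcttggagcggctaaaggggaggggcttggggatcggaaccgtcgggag
RefSeq windows were matched for 8 of the 9 genes (11 windows, with none for Agtr1a), and motifs were searched on both strands. TATAAA was found in 4 of the 11 windows (1 each of Ren1, Agt, Ace and Enpep), against 13.6% of all 32851 windows. TGACG was found in 1 of the 11 windows (Atp6ap2), against 20.8% of all windows. CCAAT was found in 6 of the 11 windows (those of Atp6ap2, Enpep and Mas1, 1 of Ace and 2 of Mme), against 37.4% of all windows, and CACGTG in 0 of the 11, against 7.15%. None of these motifs contains another, and a match is a description of the sequence and not a bound site.

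Agt (ENSMUSG00000031980; chromosome 8, 124556534 to 124569706, minus strand), the renin substrate, did not separate the groups. It had 80.4, 87.3, 79.1 and 99.3 CPM in Tsc1-KO 5, 6, 7 and 8, against 98.99, 98.53, 86.7 and 74.5 CPM in WT 1, 2, 3 and 4. The highest value was in Tsc1-KO 8 and the lowest in WT 4. The log2 change was -0.05 (SE 0.12). It was 0.14 among libraries with Y-linked reads and -0.24 among those without. Agt is also made by fat cells, and the libraries with most adipose transcripts, Tsc1-KO 6 and 7, had Agt levels of 87.3 and 79.1 CPM. Liver markers, from the organ that makes most circulating angiotensinogen, summed to 167.5 to 346 CPM in Tsc1-KO and 118 to 141 CPM in WT kidneys. By the means, most of the sum was Ttr (130 CPM in Tsc1-KO and 111 CPM in WT) and Serpina1a (68.3 and 5.48 CPM). Alb averaged 5.79 and 3.77 CPM. Of the 6 tested, 5 had a log2 change above 0 and 1 below. None passed the edgeR test (2 at an unadjusted p under 0.05, beside 3170 of all 18048 tested genes). Their part in the Agt level was not tested.

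**Figure D2:**
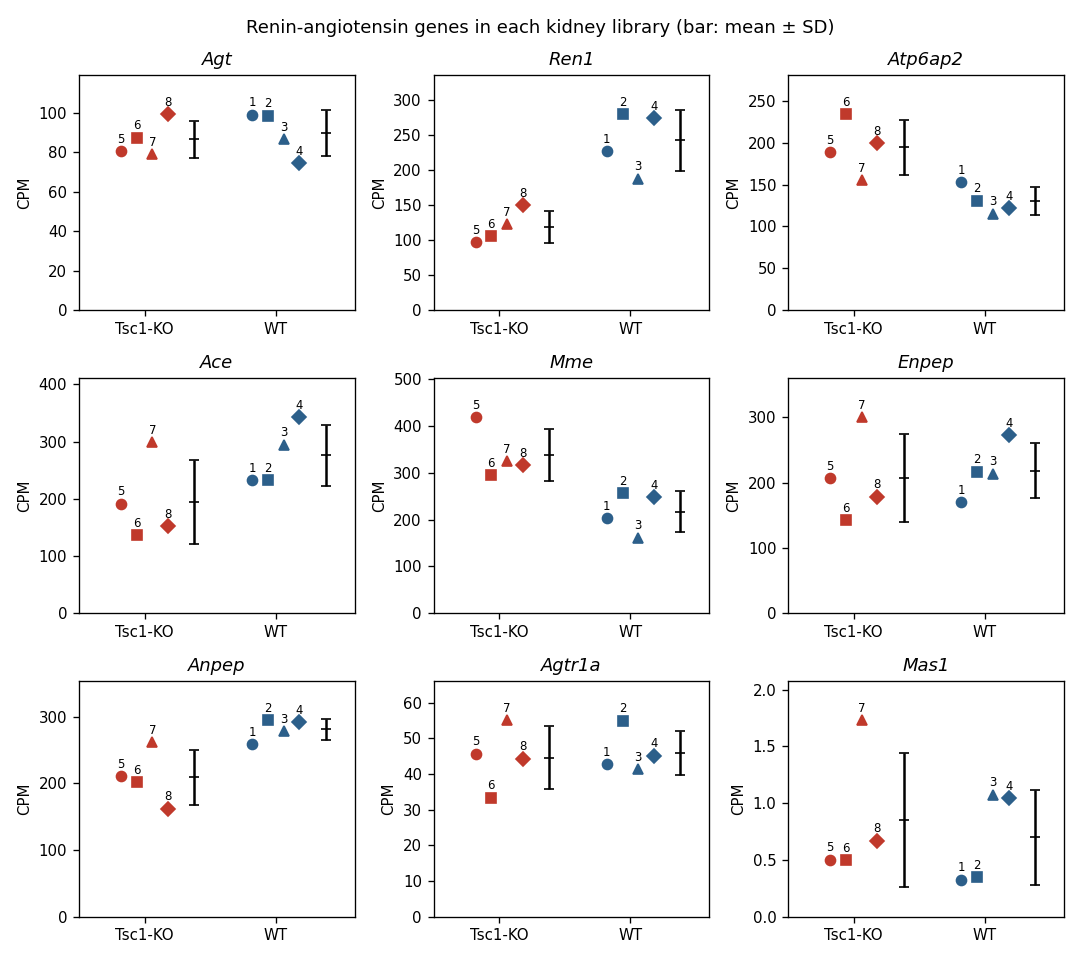
CPM of the 9 renin-angiotensin genes in each kidney library, numbered as in the labels, with Tsc1-KO (red) left of WT (blue) and a bar for the mean ± SD of 4 libraries; each y axis starts at 0. The groups do not overlap for Ren1 (lower in Tsc1-KO) or for Atp6ap2 and Mme (higher in Tsc1-KO), and they overlap for the other 6 genes.

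Ace (ENSMUSG00000020681; chromosome 11, 105967945 to 105989964, plus strand), the peptidase that makes angiotensin II, had 192, 136, 299 and 152.5 CPM in Tsc1-KO 5, 6, 7 and 8, against 233, 233, 294.5 and 343 CPM in WT 1, 2, 3 and 4. Tsc1-KO 5, 6 and 8 lay below every WT library, while Tsc1-KO 7 lay inside the WT range. The log2 change was -0.50 (SE 0.24), and -0.79 without Tsc1-KO 7. Within each group Ace was on average higher in the libraries with Y-linked reads. The difference was 0.40 on the log2 scale in Tsc1-KO and 0.45 in WT. In Tsc1-KO it rested on Tsc1-KO 7, as Tsc1-KO 8 (152.5 CPM) lay below Tsc1-KO 5 (192 CPM). In WT, WT 3 and 4 were both above WT 1 and 2. The antisense gene Gm11651 overlaps Ace, and without stated strand their reads cannot be told apart.

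Mme (ENSMUSG00000027820; chromosome 3, 63241537 to 63386030, plus strand) encodes neprilysin, an endopeptidase that converts angiotensin I to shorter peptides and degrades natriuretic peptides. It had 418, 294, 324 and 315 CPM in Tsc1-KO 5, 6, 7 and 8, against 202.5, 256, 161 and 247 CPM in WT 1, 2, 3 and 4. Every Tsc1-KO library was above every WT library, in the opposite direction to Ren1. The log2 change was 0.64 (SE 0.16), or 1.56-fold higher in Tsc1-KO. It was 0.68 among libraries with Y-linked reads and 0.62 among those without. Mme missed the adjusted threshold in the fit across all genes and passed it in 4 of 5 other fits of all 8 libraries and in 0 of the 8 fits that left out a library.

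Enpep (ENSMUSG00000028024; chromosome 3, 129269175 to 129332720, minus strand) and Anpep (ENSMUSG00000039062; chromosome 7, 79821803 to 79861059, minus strand) encode aminopeptidases A and N, which trim angiotensin II stepwise. Enpep had 207, 143, 300.1 and 178.5 CPM in Tsc1-KO 5, 6, 7 and 8, against 170.4, 217, 213.5 and 272 CPM in WT 1, 2, 3 and 4. The groups overlapped fully, with Tsc1-KO libraries at both ends, and the log2 change was -0.08 (SE 0.22), or -0.31 without Tsc1-KO 7. Anpep had 211, 201, 261 and 162 CPM in Tsc1-KO 5, 6, 7 and 8, against 258.5, 294, 278 and 292 CPM in WT 1, 2, 3 and 4. Only Tsc1-KO 7 reached the WT range. The log2 change of Anpep was -0.43 (SE 0.14), and -0.55 without Tsc1-KO 7. Ace, Enpep and Anpep all had their highest Tsc1-KO value in Tsc1-KO 7, the library that also held the highest proximal tubule sum of that group. Agt had its lowest Tsc1-KO value there (79.1 CPM), and Mme (324 CPM) was below its value in Tsc1-KO 5 (418 CPM). Whether the proximal tubule sum has a part in these values was not tested. An annotated processed pseudogene on the other strand overlaps Enpep (Gm42628), and an unclassified transcript overlaps Anpep (Gm44974).

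Of the receptors, Agtr1a (ENSMUSG00000049115; chromosome 13, 30336441 to 30382867, plus strand), through which angiotensin II acts in rodent kidney, had 45.7, 33.3, 55.0 and 44.3 CPM in Tsc1-KO 5, 6, 7 and 8, against 42.65, 55.0, 41.3 and 45.1 CPM in WT 1, 2, 3 and 4. The groups overlapped and the log2 change was -0.04 (SE 0.15), or -0.16 without Tsc1-KO 7. The sense intronic gene Gm48161 overlaps Agtr1a. Its paralog Agtr1b had at most 12 reads in any library (Tsc1-KO 7), and Agtr2, the other angiotensin II receptor, at most 14 (Tsc1-KO 6), so neither had enough counts to be tested. Because Agtr1a and Agtr1b are near-identical, the split of their reads is uncertain.

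Mas1 (ENSMUSG00000068037; chromosome 17, 12841079 to 12868143, minus strand) was at the edge of detection. It had 15, 15, 55 and 21 reads in Tsc1-KO 5, 6, 7 and 8, against 9, 9, 29 and 28 reads in WT 1, 2, 3 and 4. The levels were 0.501, 0.499, 1.73 and 0.668 CPM in Tsc1-KO, against 0.326, 0.349, 1.07 and 1.04 CPM in WT. Levels were higher in the libraries with Y-linked reads, by 0.98 on the log2 scale within Tsc1-KO and by 1.41 within WT. Each was more than the genotype difference of 0.28 (SE 0.55). The Tsc1-KO value rested largely on Tsc1-KO 7, as Tsc1-KO 8 (0.668 CPM) was nearer to Tsc1-KO 5 and 6. Without Tsc1-KO 7 the log2 change between the genotypes was -0.33. The antisense gene Airn overlaps Mas1, so reads of the pair cannot be told apart without strand.

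**Figure D3:**
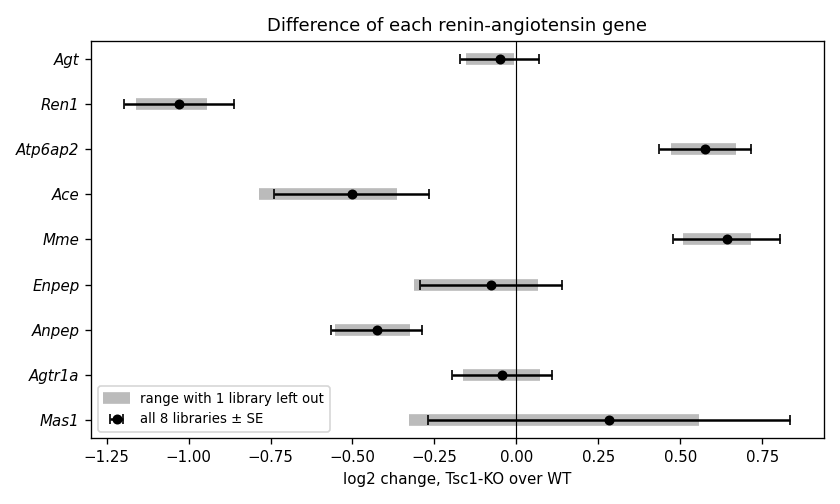
Log2 change of each renin-angiotensin gene, Tsc1-KO over WT, from the fit of all 8 libraries (points, with ± SE) and its range when 1 library is left out (grey bars). Ren1 stays between -1.16 and -0.95, Atp6ap2 between 0.47 and 0.67 and Mme between 0.51 and 0.72, whereas the grey bars of Enpep, Agtr1a and Mas1 cross 0.

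Over the 9 genes, all of which passed the filter on low counts, 6 log2 changes were below 0 and 3 above, with a median of -0.05 (0.005 over all tested genes). In 3 of the 9 the libraries of the groups did not overlap, where 11.5% of all tested genes had such groups. Ren1 was the 1 gene lower in this way (4.4% of all tested genes), and Atp6ap2 and Mme were the 2 higher ones (7.09%). Without Tsc1-KO 7, Ace and Anpep also passed the adjusted threshold as lower, beside Ren1 as lower and Atp6ap2 as higher. In that fit 1206 of the 18395 tested genes passed, 833 as higher and 373 as lower. As the contrast chose the 9 genes, nothing is read from their calls. Atp6ap2 passed only without Tsc1-KO 7 or without WT 1 and not without Tsc1-KO 5, 6 or 8 or WT 2, 3 or 4.

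Levels of different genes were compared per gene length, as the authors' FPKM. In Tsc1-KO kidneys Atp6ap2 (73.4 ± 12.8 FPKM) and Ren1 (70.7 ± 13.9 FPKM) stood level at the top, with overlapping libraries. In WT kidneys Ren1 led with 146 ± 25.97 FPKM, and its lowest library (113 FPKM) was above every library of the gene that followed, Anpep (67.9 ± 3.69 FPKM). Below these, Anpep, Agt, Enpep and Ace overlapped in Tsc1-KO kidneys, with means of 49.8, 45.2, 43.4 and 36.3 FPKM, and the highest libraries of Enpep (62.75 FPKM) and Anpep (62.2 FPKM) reached into the range of Ren1 and Atp6ap2. In WT kidneys Ace, Atp6ap2, Agt and Enpep overlapped, Ace also with Anpep, with means of 52.2, 49.9, 47.5 and 46.4 FPKM. Mme averaged 28.9 ± 4.48 FPKM in Tsc1-KO and 18.8 ± 3.75 FPKM in WT kidneys. In Tsc1-KO its libraries overlapped those of Ace and were above those of Agtr1a, and in WT the libraries of Mme and Agtr1a overlapped. Agtr1a averaged 15.8 ± 3.06 FPKM in Tsc1-KO and 16.5 ± 2.18 FPKM in WT kidneys. Mas1 was last in every library, at 0.187 to 0.649 FPKM in Tsc1-KO and 0.126 to 0.409 FPKM in WT kidneys.

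**Figure D4:**
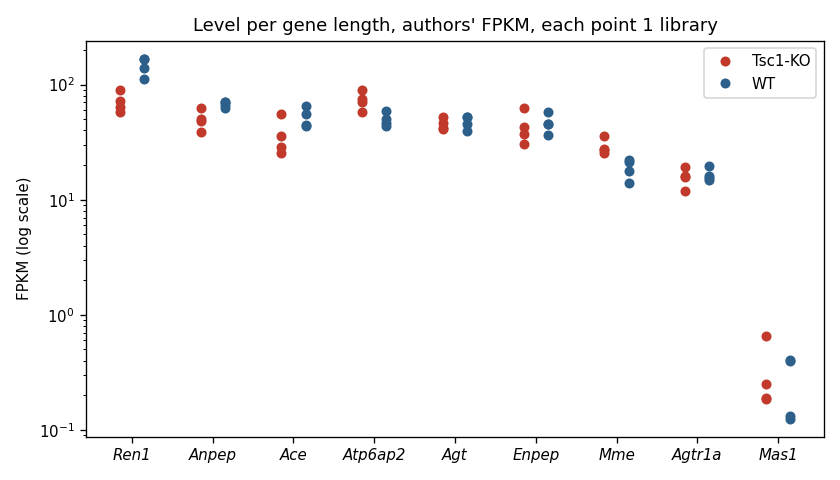
Level per gene length (authors' FPKM, log scale) of the 9 renin-angiotensin genes, 1 point per library, with Tsc1-KO (red) left of WT (blue). Ren1 stands alone at the top of the WT libraries (113 to 168 FPKM), while in Tsc1-KO libraries Ren1 (57.3 to 89.3 FPKM) and Atp6ap2 (58.3 to 89.3 FPKM) cover the same range.

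To see which other transcripts follow renin, 14054 genes with a mean count of at least 50 were ranked by Pearson's r of log2 CPM with Ren1 over the 8 libraries, which is a description, since the libraries share the genotype split and depth. The 5 highest were Gli1 (r = 0.953), Letmd1 (0.951), Ptpro (0.950), Klhl42 (0.946) and Kcnj16 (0.941). Gli1 is a hedgehog pathway factor, Ptpro a podocyte phosphatase and Kcnj16 a potassium channel subunit of the distal nephron. Kcnj16 averaged 491 CPM in Tsc1-KO and 910 CPM in WT kidneys, and Ptpro 7.39 CPM in Tsc1-KO and 23.4 CPM in WT kidneys. Once the mean of each genotype was taken off, the 5 highest were Olfml1 (r = 0.990), Rbm7 (0.975), Rab27b (0.965), 4732440D04Rik (0.961) and Krr1 (0.956), none of which passed the test between the groups. The top of 14054 values of r over only 8 libraries can be this high by chance. Whether any of these genes follows Ren1 was not tested. Among the renin-angiotensin genes, r with Ren1 after the genotype means were taken off ran from -0.187 (Anpep) to 0.46 (Agtr1a), leaving out Mas1, which was below that count.

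Renin cells and their neighbours were examined with 14 genes of juxtaglomerular cells, pericytes and arteriolar smooth muscle, without Ren1. None passed the edgeR test, where 4.67% of all tested genes did, nor DESeq2. In edgeR, 2 had an unadjusted p under 0.05 (Mcam and Acta2, both with higher means in Tsc1-KO), beside 3170 of all 18048 tested genes. For 14 genes, 0 calls is near the share over all genes, so nothing about renin cells is read from it. The median log2 change of the 14 was 0.03, and their summed level was 407 to 529 CPM in Tsc1-KO and 427 to 501.5 CPM in WT kidneys. Akr1b7, an aldo-keto reductase made with renin in juxtaglomerular cells and also in the mouse adrenal cortex, had 2.84, 3.69, 9.68 and 3.88 CPM in Tsc1-KO 5, 6, 7 and 8, against 4.46, 7.05, 4.96 and 4.58 CPM in WT 1, 2, 3 and 4. Tsc1-KO 7, the library with adrenal transcripts, was highest and the other Tsc1-KO libraries were below every WT library. The log2 change of Akr1b7 was -0.07 (SE 0.36; edgeR adjusted p = 0.959) and, without Tsc1-KO 7, -0.60 (adjusted p = 0.193, the lowest of its alternatives). Gja5, the connexin of renin cells, averaged 8.94 ± 1.36 CPM in Tsc1-KO and 9.78 ± 1.86 CPM in WT kidneys, a log2 change of -0.13 (SE 0.18; edgeR adjusted p = 0.788).

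Renin release is controlled by the macula densa and by cAMP and cGMP. Of 18 genes of this control, 1 passed the edgeR test, beside 4.67% of all tested genes: Adcy5, an adenylyl cyclase that is inhibited by calcium, was higher in Tsc1-KO. Adcy5 had 46.0, 46.1, 26.6 and 44.4 CPM in Tsc1-KO 5, 6, 7 and 8, against 11.7, 12.4, 11.8 and 8.496 CPM in WT 1, 2, 3 and 4. Even Tsc1-KO 7, the lowest of its group, was above every WT library. The log2 change was 1.88 (SE 0.19; edgeR adjusted p = 0.000312), or 3.68-fold, and it passed with any 1 library left out. The macula densa genes Ptgs2 and Nos1, a prostaglandin and a nitric oxide synthase, were low. Ptgs2 averaged 0.973 ± 0.598 CPM in Tsc1-KO and 1.604 ± 0.491 CPM in WT kidneys (log2 change -0.72, SE 0.44, edgeR adjusted p = 0.452, and a log2 change of -1.19 without Tsc1-KO 7). Nos1 averaged 1.97 ± 0.477 CPM in Tsc1-KO and 2.54 ± 0.53 CPM in WT kidneys (log2 change -0.36, SE 0.27, edgeR adjusted p = 0.544). Adcy5 is not specific to renin cells, and the cells that carried its RNA were not tested.

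Of 20 further angiotensin-processing genes and receptors, 18 were in the table, 12 could be tested and 1 passed as lower, beside 1.16% of all tested genes. Klk1, the kidney kallikrein, a kinin-forming protease of the distal nephron, had 1380, 982, 1204 and 932 CPM in Tsc1-KO 5, 6, 7 and 8, against 2756, 2502, 1516 and 1594 CPM in WT 1, 2, 3 and 4. All Tsc1-KO libraries were lower than all WT libraries, and within WT the libraries with Y-linked reads were the lower ones. The log2 change of Klk1 was -0.90 (SE 0.21; edgeR adjusted p = 0.0367). It was -0.55 among libraries with Y-linked reads and -1.17 among those without. The call was lost without Tsc1-KO 6 (adjusted p = 0.112), Tsc1-KO 8 (0.111), WT 1 (0.0853) or WT 2 (0.0962), and Klk1 has near-identical copies, so its counts are uncertain. Lnpep, an aminopeptidase known as an angiotensin IV binding site, had a log2 change of 0.15 (SE 0.14; edgeR adjusted p = 0.668). The median of the 12 was -0.12, with 5 log2 changes above 0 and 7 below. With DESeq2, with Y-linked reads as a model term, without a filter and without Tsc1-KO 7, 1 gene of the list passed as higher and 1 as lower.

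Aldosterone acts downstream of angiotensin II on the distal nephron. Of 10 genes of this response, Scnn1g, the gamma subunit of the epithelial sodium channel, passed the test as higher, beside 3.5% of all tested genes. It averaged 71.4 ± 7.10 CPM in Tsc1-KO and 51.3 ± 5.55 CPM in WT kidneys, with no overlap of libraries and a log2 change of 0.48 (SE 0.11; edgeR adjusted p = 0.0391). That call of Scnn1g was kept only without Tsc1-KO 7 among the 8 fits that left out a library, and the adjusted p was 0.0538 to 0.142 without Tsc1-KO 5, 6 or 8 or WT 1, 2, 3 or 4. Of the other channel subunits, Scnn1a had a log2 change of 0.56 (SE 0.15; edgeR adjusted p = 0.0605) and Scnn1b one of 0.45 (SE 0.14; edgeR adjusted p = 0.105), both read after their values were seen. The mineralocorticoid receptor Nr3c2 had a log2 change of 0.20 (SE 0.14; edgeR adjusted p = 0.523), and the kinase Sgk1, an early aldosterone target, one of 0.27 (SE 0.34; edgeR adjusted p = 0.77). The median of the 10 was 0.23.

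**Figure D5:**
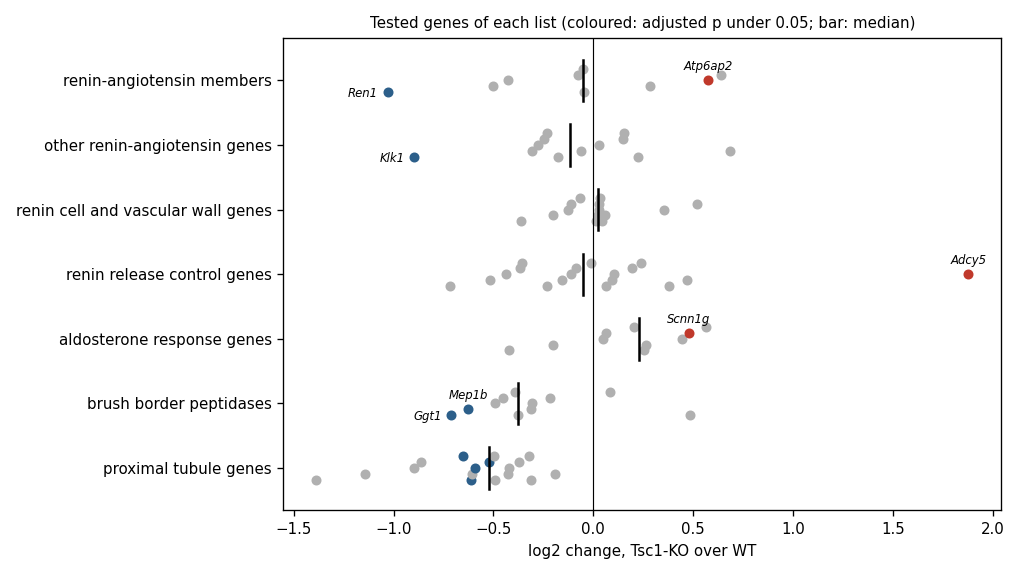
Log2 change, Tsc1-KO over WT, of each tested gene of the renin-angiotensin genes and of the 6 lists around them; coloured points passed an adjusted p under 0.05 (red higher, blue lower in Tsc1-KO), and black bars are medians. All 17 proximal tubule genes lie below 0 (median -0.52), and the coloured points outside the renin-angiotensin and proximal tubule genes are Klk1, Adcy5, Scnn1g, Ggt1 and Mep1b.

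The brush border that carries Ace, Mme, Enpep and Anpep was described through 11 other tested peptidases and partners. Of these, 2 were called lower (1.16% of all tested genes were), 9 had a log2 change below 0 and the median was -0.37. Ggt1, the gamma-glutamyltransferase that begins glutathione breakdown, averaged 650.1 ± 139.6 CPM in Tsc1-KO and 1063 ± 157.5 CPM in WT kidneys, a log2 change of -0.71 (SE 0.16; edgeR adjusted p = 0.0293). Mep1b, a meprin subunit, averaged 149 ± 34.9 CPM in Tsc1-KO and 229.5 ± 22.7 CPM in WT kidneys, a log2 change of -0.62 (SE 0.16; edgeR adjusted p = 0.0476). Dpp4, a dipeptidyl peptidase, had a log2 change of -0.31 (SE 0.14; edgeR adjusted p = 0.268). Ggt1 kept its call without Tsc1-KO 7 or WT 2 and lost it without any other library (adjusted p = 0.0504 to 0.0982), and Mep1b kept it only without Tsc1-KO 7 (otherwise 0.0586 to 0.128).

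Proximal tubule genes were examined because this segment carries the brush border. Their summed level was 14150, 10820, 15970 and 12610 CPM in Tsc1-KO 5, 6, 7 and 8, against 19680, 18710, 20470 and 20170 CPM in WT 1, 2, 3 and 4. All 17 genes had a log2 change below 0 (8891 of the 18048 tested genes did), and 4 passed the test as lower, beside 1.16% of all tested genes. As markers of the same segment, the genes do not vary independently. The changes of Slc7a13 (-0.32, SE 1.43), Slc22a30 (-1.14, SE 1.40) and Acsm3 (-1.39, SE 2.0) were smaller than their SE. Among libraries without Y-linked reads Slc7a13 (1.67) and Acsm3 (0.43) were above 0, and among those with such reads Aqp1 was (0.05). Slc34a1, the main phosphate transporter, averaged 4221 ± 671 CPM in Tsc1-KO and 6637 ± 489.8 CPM in WT kidneys, a log2 change of -0.65 (SE 0.13; edgeR adjusted p = 0.0183). Miox, the inositol oxygenase, had a log2 change of -0.61 (SE 0.12; edgeR adjusted p = 0.013), Fbp1, a gluconeogenic enzyme, one of -0.52 (SE 0.12; edgeR adjusted p = 0.0283) and Hnf4a, the transcription factor of this segment, one of -0.59 (SE 0.15; edgeR adjusted p = 0.0497). Miox passed with any 1 library left out. Slc34a1 did not without Tsc1-KO 5, Tsc1-KO 8 or WT 3 (adjusted p = 0.051 to 0.0619), nor Fbp1 without Tsc1-KO 5, 6 or 8 or WT 1 or 3 (0.0717 to 0.0994), and Hnf4a passed only without Tsc1-KO 7 (otherwise 0.0536 to 0.149). Beside these genes, Ace (-0.50) and Anpep (-0.43) lay near the segment's median, and Agt (-0.05), Enpep (-0.08) and Mme (0.64) above each of the 17. The part of the lower proximal tubule level in the values of Ace and Anpep was not tested.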

How the data were processed

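RNA of whole kidney was poly(A)-selected and sequenced on an Illumina HiSeq. HISAT2 2.0.4 and HTSeq 0.9.1 are listed in the submitters' processing notes, without roles. Build, annotation and strandedness: not given in the sources used here. The deposited read counts per gene were made by the authors and were used for every comparison. The authors' FPKM, which scale by gene length and library total, were used for levels between genes and for 1 alternative. The authors' normalized signal, group means, fold changes, p-values and adjusted p-values were not used, nor were the other deposited sheets, which repeat genes of the full table. Of 30551 gene identifiers shared with GENCODE M21, 29756 (all 9 genes described here included) had the same position, so positions are given as in GRCm38.

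A filter on low counts (filterByExpr, minimum count 10) left 18048 genes, and the 12539 others held 0.116% of counts. Counts were scaled by TMM (factors 1.01 to 1.05 in Tsc1-KO and 0.961 to 0.979 in WT) and tested in R 4.3.3 with the edgeR 4.0.16 quasi-likelihood test (robust, biological coefficient of variation 0.241), with Benjamini-Hochberg adjustment over all tested genes, two-sided. Standard errors were taken as log2 change over the root of F. The pipeline was checked on simulated counts. The alternatives were upper-quartile scaling, no filter on low counts, Y-linked reads as a model term, DESeq2 1.42.0, FPKM on the log2 scale with a pseudocount of 0.1 in limma 3.58.1 (whose changes are understated for low genes), and leaving out each library.

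The 9 genes, the 6 lists around them and the marker lists were chosen with earlier results of these data known. Named are all 9 genes, the called genes of each list (up to 4 with the smallest adjusted p), Agtr1b, Agtr2, Lnpep, Akr1b7, Gja5, Ptgs2, Nos1, Nr3c2, Sgk1, Dpp4, Slc34a1 and Hnf4a, and the genes most like Ren1. Some items that this rule or the marker lists name are not reported here. Tsc1, Ifi202b, Mcam, Acta2, Scnn1a and Scnn1b were named after their values were seen.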

Additional observations from a re-analysis of the deposited data

Results flagged for a closer look

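Among 54 groups of 4 libraries (27 genes in both genotypes), 4 held a library whose gap to the nearest of the others, as a share of the group's range, exceeded Dixon's 95% limit of 0.829. Chance gives about 1 in 20 groups. All 4 were values of Tsc1-KO 7, the library with adrenal cortex transcripts and also with the highest proximal tubule sum of its group. What set these values apart was not tested. Mas1 had 1.73 CPM there and 0.498 to 0.668 CPM in the other Tsc1-KO libraries. Adcy5 had 26.6 CPM there and 44.4 to 46.1 CPM in the others. Ggt1 had 858 CPM there and 563 to 596 CPM in the others. Akr1b7 had 9.68 CPM there and 2.84 to 3.88 CPM in the others.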

How the results depend on the processing

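The log2 change of Ren1, whose lower level chose the genes, was -1.16 to -0.945 with 1 library left out, which is a description. Over all genes, 842 were called, against 1540 with DESeq2 (1011 higher and 529 lower). The total was 1115 with Y-linked reads as a term, 925 without a filter and 672 with FPKM. It was 442 (without WT 3) to 1206 (without Tsc1-KO 7) with 1 library left out. The counts of each list below are to be read beside these totals. Of the 9 renin-angiotensin genes, 4 were called with DESeq2, 1 with FPKM and 1 to 4 with 1 library left out. With DESeq2 the calls were 2 of the other renin-angiotensin genes, 2 of the renin release genes, 2 of the aldosterone response genes, 6 of the brush border peptidases and 8 of the proximal tubule genes. With Y-linked reads as a term they were 2 of the other renin-angiotensin genes, 3 of the aldosterone response genes and 7 of the proximal tubule genes. Without a filter they were 2 of the other renin-angiotensin and 2 of the aldosterone response genes. With FPKM they were 0 of the other renin-angiotensin genes, 0 of the aldosterone response genes and 1 of the brush border peptidases. With 1 library left out the calls ranged from 0 to 2 (other renin-angiotensin genes), 0 to 3 (aldosterone response), 0 to 4 (brush border) and 1 to 6 (proximal tubule). The 14 renin cell genes had 0 calls in every fit, and nothing is read from so short a list. The causes of these differences were not tested. Fewer libraries leave fewer degrees of freedom. Among single genes, the sign turned with 1 library left out for Akr1b7 (-0.601 to 0.128, above 0 without Tsc1-KO 5 at 0.128, Tsc1-KO 6 at 0.0555, Tsc1-KO 8 at 0.0387 and WT 2 at 0.0893), Gja5 (-0.219 to 0.0054, without WT 1) and Sgk1 (-0.0365, without Tsc1-KO 6, to 0.545), none of them called. It also turned for Agtr1a (0.0709 without Tsc1-KO 6 and 0.0345 without WT 2), Enpep (0.0654 without Tsc1-KO 6 and 0.0259 without WT 4) and Mas1 (-0.327 without Tsc1-KO 7), none of which passed in any fit. Depth limits low genes such as Mas1, with 9 to 55 reads. No paired analysis was possible because the groups share no replicate numbers.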
